A study of Mus musculus with 4 samples.

Results

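The genes described here are 31 genes of the embryonic neural tube, from transcription factors of dividing progenitors to structural genes of young neurons, measured by RNA sequencing in cultured mouse forelimbs. They were picked by name, and all 31 were found among the 17568 genes of the expression table. The choice was made with the difference between cyclopamine and control in view, so that difference is a description here: calls from a fit across all genes are given for its members, and nothing is supported with them. The set holds 9 genes of neural progenitors, 3 of the dorsal neural tube, 6 factors of neuronal differentiation and 13 genes of neurons. The embryos were wild-type Swiss Webster, taken at E10.25 with 31 to 34 somites, and their forelimbs were cultured in control medium (2 libraries) or in medium with cyclopamine (2 libraries, spelled cyclopmaine in the labels). No transgene or engineered allele is named for either group. Cyclopamine, an alkaloid from corn lilies, blocks Hedgehog signalling by binding Smoothened. The sources used here give no dose, no culture time and no count of limbs behind a library, and the submitters call the libraries of a group biological replicates.

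Between 9779589 and 13555492 gene-assigned reads stood behind a library, and values are in CPM, read counts scaled to library size. A single read was worth 0.0735 to 0.103 CPM, and the detection floor of 3 reads came to 0.22 to 0.31 CPM. The forelimb label was matched by its defining genes: the limb mesenchyme gene Prrx1 measured 560 to 783 CPM and the forelimb factor gene Tbx5 193 to 226 CPM, against 5.51 to 9.9 CPM for the hindlimb gene Tbx4 and 0.22 to 2.35 CPM for Pitx1. Gli1, a direct transcriptional target of the pathway, measured 56.2 and 56.7 CPM in control limbs and 8.05 and 4.7 CPM in cyclopamine. Ptch1, which encodes a Hedgehog receptor, measured 116 and 107 CPM against 51.3 and 32.2 CPM. Cyclopamine 2 stood apart by genes of liver and yolk sac, which were noticed after their values were seen: Afp measured 16.3 and 23.4 CPM in control limbs, 1.89 CPM in cyclopamine 1 and 466 CPM in cyclopamine 2, and Alb 1.55, 3.89, 0.552 and 139 CPM in the same order. The part of this tissue in the results below was not tested; without cyclopamine 2, the log2 ratio of cyclopamine to control in summed CPM was -2.83 for progenitor, -7.47 for dorsal, -4.86 for differentiation and -0.84 for neuron genes, against -2.94, -3.68, -5.04 and -0.91 with it.

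The neural tube is the embryonic spinal cord and brain. Its dividing progenitors line the lumen and are kept in cycle by SOXB1 factors and Notch signalling; proneural basic helix-loop-helix factors then push single cells out of cycle, and these switch on cytoskeletal, RNA-binding and synaptic genes. Hedgehog from the notochord and floor plate patterns the ventral side, and BMP and WNT signals from the roof plate pattern the dorsal side. The limb bud has no neural tube of its own: it grows out beside it, and spinal and sensory axons enter it while their cell bodies stay in the trunk. In whole-limb RNA, fewer cells of a type and less RNA per cell cannot be told apart.

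All 4 groups of genes were lower in both cyclopamine libraries, and by very different amounts. Summed over its 9 genes, the progenitor group measured 13.4 and 33.8 CPM in control limbs and 3.31 and 2.84 CPM in cyclopamine, 7.68-fold lower on the group means. The 3 dorsal genes summed to 8.98 and 19.0 CPM against 0.0789 and 2.11 CPM. For the 6 differentiation factors the sums were 5.67 and 12.7 CPM against 0.316 and 0.243 CPM. This was the steepest of the 4, at 32.9-fold, and the cyclopamine sums rest on 4 and 3 reads. The 13 neuron genes summed to 140 and 157 CPM against 82.9 and 75.2 CPM, 1.88-fold lower. Dcx alone made up 41.9% of that last sum in the controls, and without it the neuron genes measured 72.0 and 101 CPM against 24.5 and 27.3 CPM, 3.34-fold lower. The control and cyclopamine sums overlapped in none of these groups.

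**Figure D1:**
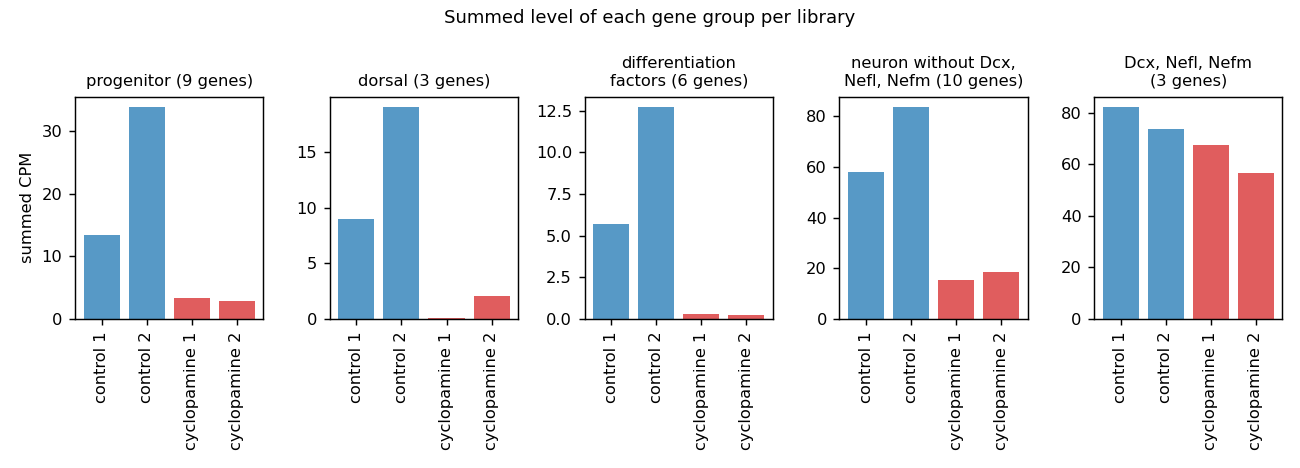
Summed CPM (vertical axis, from 0, a different scale in each panel) of 5 sets of genes in each of the 4 libraries (bars). Both cyclopamine bars are below both control bars in every panel, and control 2 is the tallest bar except in the panel of Dcx, Nefl and Nefm, where the bars run from 56.5 to 82.2 CPM.

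Gene by gene, both cyclopamine libraries lay below both controls for 29 of the 31 genes, against 15.7% of all genes in the table, a share from which nothing is read because the genes were chosen on this contrast. The exceptions were Dcx, whose ranges overlapped, and Neurod1, which had 0 reads in control 1. Only 19 genes reached a mean of 1 CPM over the 4 libraries and were fitted with limma; 12 lay under that filter. Of the 19, 9 fell at an adjusted p under 0.05 and 0 rose, where 0.280% of the 13568 genes tested were called in either direction, 0.236% as lower and 0.0442% as higher. Nothing is read from that count, since the contrast chose the genes, and Pou3f2, Myt1, Ina and Thy1 reached the filter only through the controls, with a cyclopamine mean under 1 CPM. These 9 were Pou3f2, Zic1, Myt1, Cntn2, Tubb3, Stmn2, Elavl3, Ina and Thy1. The count was 3 with scaling by total reads and 0 without the intensity trend or without the filter. Without control 2, 12 genes passed the filter and 2, Stmn2 and Tubb3, were called. The authors' deposited table has 20 of the 31 at a false discovery rate under 0.05, against 0.455% of its genes.

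**Figure D2:**
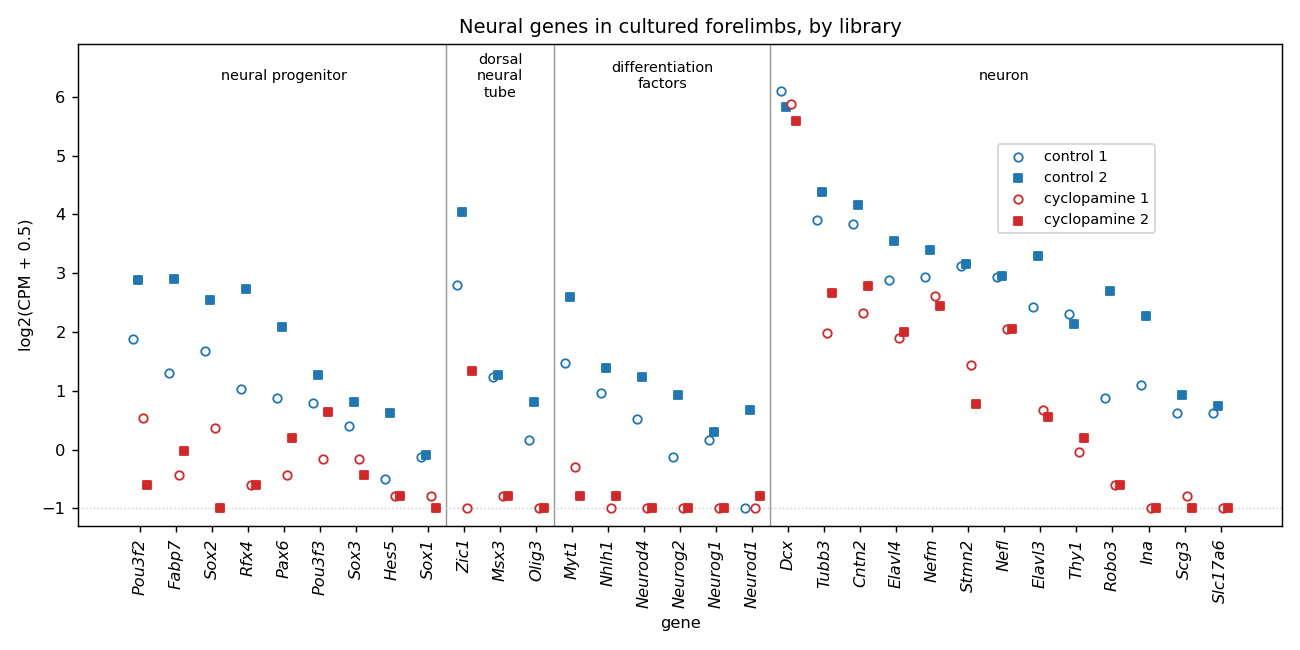
Level of each of the 31 genes, as log2(CPM + 0.5) (vertical axis), in control (blue) and cyclopamine (red) libraries, ordered within each group by the control mean (horizontal axis). The dotted line marks 0 reads, where both cyclopamine libraries lie for Olig3, Neurog1, Neurog2, Neurod4, Ina and Slc17a6, and Dcx stands alone near the top with its red and blue points mixed.

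Among the progenitor genes, the SOXB1 factors come first, since they mark neural identity and hold progenitors back from differentiation. Sox2 measured 2.68 and 5.36 CPM in control limbs and 0.789 and 0 CPM in cyclopamine. Its cyclopamine libraries disagreed, with 10 reads in the first and 0 in the second, where 0 reads allow up to 0.243 CPM. Sox3 was fainter, at 0.825 and 1.25 CPM against 0.394 and 0.243 CPM, and Sox1 had 4 and 6 reads in the controls and 1 and 0 in cyclopamine. Both lay under the filter, but neither overlapped between the groups. In the GENCODE annotation of mm10, Sox2 is a single-exon gene on chromosome 3, 34650405 to 34652461. Outside the neural tube Sox2 also marks gut and sensory epithelia, so it is not a neural gene alone.

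Pax6, a paired box factor of intermediate and dorsal progenitors, measured 1.34 and 3.75 CPM in control limbs and 0.237 and 0.648 CPM in cyclopamine. Rfx4, a winged-helix factor of neural progenitors, measured 1.55 and 6.17 CPM against 0.158 and 0.162 CPM. Fabp7, which encodes the brain fatty acid binding protein of radial glia, measured 1.96 and 6.98 CPM against 0.237 and 0.486 CPM. In all of these the groups were apart, and control 1 was much nearer to cyclopamine than control 2 was. Rfx4 kept the smallest share of its control level of any progenitor gene, 3.76%, resting on 4 cyclopamine reads against 99 control reads (ratio 26.6, 95% counting interval 10.1 to 99.4). Hes5, a Notch effector that represses proneural genes, had 2 and 14 reads in the controls and 1 read in each cyclopamine library.

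The POU-domain genes behaved unequally. Pou3f2, a class III POU factor of progenitors and migrating neurons, measured 3.2 and 6.91 CPM in control limbs and 0.947 and 0.162 CPM with cyclopamine (log2 fold change -2.42, SE 0.48). Its relative Pou3f3 measured 1.24 and 1.91 CPM against 0.394 and 1.05 CPM, which left it 44.1% of its control level, the largest share in the progenitor group. For Pou3f3 cyclopamine 2 came close to control 1, with a log2 fold change of -0.80 (SE 0.48). Both are single-exon genes, on chromosome 4, 22482780 to 22488366, and chromosome 1, 42695768 to 42703176.

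Promoters of these genes were searched for short motifs of the factors in the set and for a GLI site. RefSeq promoters (GRCm38.p6) matched 26 of the 31 genes, with 36 start sites, and the 250 bases before each start were searched on both strands. The SOX core CTTTGT lay before 6 of the 36 starts (16.7%), against 16.5% of all 32851 promoters, and the E-box CAGATG, a proneural factor motif, before 6 (16.7%), against 14.4%. The 9-letter GLI site TGGGTGGTC lay before 0 of the 36, against 0.225% of all. The SOX core and E-box shares differ little from those of all promoters. At 0.225%, 36 starts are too few to expect a GLI site, so its 0 shows nothing either way. Starts of the same gene are counted apart, and the 6 starts with an E-box belong to 4 genes. Sox2 and Hes5 are shown as progenitor genes with a SOX core, and Nhlh1, a differentiation factor described below, as one with an E-box, the motif in capitals on the strand of the gene, 5′ to 3′. They lie at chr3:34649745-34649994 (plus strand), chr4:154960673-154960922 (plus strand) and chr1:172057597-172057846 (minus strand). The RefSeq start used for Sox2 lies upstream of the GENCODE start at 34650405 given above, so this stretch does not adjoin it.
Sox2: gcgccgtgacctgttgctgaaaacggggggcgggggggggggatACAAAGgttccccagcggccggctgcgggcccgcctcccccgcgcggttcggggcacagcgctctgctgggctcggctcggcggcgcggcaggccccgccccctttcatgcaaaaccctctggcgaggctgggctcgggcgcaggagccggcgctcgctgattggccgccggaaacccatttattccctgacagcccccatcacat
Hes5: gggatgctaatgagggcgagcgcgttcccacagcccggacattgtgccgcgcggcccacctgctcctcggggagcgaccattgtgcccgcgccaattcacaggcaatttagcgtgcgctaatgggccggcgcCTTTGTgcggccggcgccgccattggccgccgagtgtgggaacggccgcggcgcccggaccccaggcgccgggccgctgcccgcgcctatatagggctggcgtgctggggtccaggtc
Nhlh1: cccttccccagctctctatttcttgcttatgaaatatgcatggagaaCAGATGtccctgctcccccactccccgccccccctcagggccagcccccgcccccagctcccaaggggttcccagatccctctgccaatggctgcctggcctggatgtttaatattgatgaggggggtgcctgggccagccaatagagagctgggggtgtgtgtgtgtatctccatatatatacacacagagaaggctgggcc

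The dorsal group turned on Zic1, a zinc finger factor of the dorsal neural tube that dorsal somites also express. Zic1 measured 6.5 and 15.9 CPM in control limbs and 0 and 2.03 CPM with cyclopamine (log2 fold change -3.25, SE 0.58), which is 63 and 216 reads against 0 and 25. It split the cyclopamine libraries in the opposite way to Sox2, with its reads in cyclopamine 2 alone. Exons of Zic1 (chromosome 9, 91358058 to 91365810) overlap those of Zic4 on the opposite strand, and no source used here says if counting used the strand. Zic4 measured 0.619 and 3.6 CPM against 0 and 0.243 CPM.

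Msx3, a homeobox gene of the dorsal neural tube, was the steadier of the faint dorsal genes. It measured 1.86 and 1.91 CPM in control limbs and 0.0789 and 0.081 CPM in cyclopamine, a single read in each of the latter (ratio 23.6, 95% counting interval 6.16 to 201). Olig3, a basic helix-loop-helix factor of the most dorsal progenitors, had 6 and 17 reads in the controls and 0 in both cyclopamine libraries. It was thus at least 8.23-fold lower, with 3 reads over the cyclopamine group (0.12 CPM) as the floor; this and the other bounds cover counting error only. Msx3 and Olig3 summed to 2.48 and 3.16 CPM in control limbs and 0.0789 and 0.081 CPM in cyclopamine. Like Zic1 they were lower in cyclopamine, where each sum is 1 read, too few to compare the libraries. The ratio of control 2 to control 1 was 1.03 for Msx3 (95% counting interval 0.543 to 1.99), 2.02 for Olig3 (0.759 to 6.25) and 2.44 for Zic1.

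The differentiation factors were close to undetected in cyclopamine. Neurog2 and Neurog1, the neurogenins that start neuronal differentiation, had 23 and 16 control reads and 0 cyclopamine reads, at least 8.23-fold and 5.73-fold lower. Neurod4, which acts after them, had 9 and 25 reads in the controls and 0 in cyclopamine, at least 12.2-fold lower. Nhlh1, switched on as neurons leave the cycle, measured 1.44 and 2.13 CPM against 0 and 0.081 CPM, the latter a single read. Control and cyclopamine did not overlap for any of these 4 genes. Neurod1 differed from them: its 15 control reads all came from control 2, and it had 0 and 1 reads in cyclopamine.

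Myt1, a zinc finger factor that sustains the neuronal programme, was the only differentiation factor above the filter. It measured 2.27 and 5.51 CPM in control limbs and 0.316 and 0.081 CPM with cyclopamine (log2 fold change -2.57, SE 0.49), from 97 control reads and 5 cyclopamine reads. The 5 genes under the filter summed to 33 and 98 reads in the controls and 0 and 2 reads in cyclopamine. Their summed ratio of 70.3 has a 95% counting interval of 19.1 to 587, so its size is poorly fixed. Exons of Neurod1, like those of Hes5 and Ina, overlap a gene on the opposite strand.

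The neuron genes spread from near-complete loss of signal to almost none. At the low end were Ina, which encodes the neuronal intermediate filament internexin, Slc17a6, the vesicular glutamate transporter of excitatory neurons, and Scg3, a secretory granule gene. Ina had 16 and 59 reads in the controls and 0 in cyclopamine, at least 26.8-fold lower. Slc17a6 had 10 and 16 reads against 0 and 0 (at least 9.30-fold lower), and Scg3 had 10 and 19 against 1 and 0. Robo3, a guidance receptor of commissural neurons whose axons cross the floor plate, measured 1.34 and 5.95 CPM against 0.158 and 0.162 CPM. These 4 genes were near or under the floor in both cyclopamine libraries, while their control levels ranged from 1.03 to 5.95 CPM.

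A second set kept a clear level in cyclopamine. Tubb3, the neuronal beta-tubulin, measured 14.4 and 20.4 CPM in control limbs and 3.47 and 5.83 CPM with cyclopamine (log2 fold change -1.82, SE 0.28). Cntn2, an adhesion molecule on the first axons of commissural and motor neurons, measured 13.8 and 17.3 CPM against 4.5 and 6.4 CPM (-1.44, SE 0.26). Stmn2, a microtubule regulator of growth cones, measured 8.25 and 8.45 CPM against 2.21 and 1.22 CPM (-2.04, SE 0.33). Each of these fell, and in each both cyclopamine libraries were well under both controls. The controls of Stmn2 were nearly equal, unlike those of most genes here.

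The ELAV-like RNA-binding proteins, which stabilise neuronal messages, were both lower. Elavl3 measured 4.85 and 9.33 CPM in control limbs and 1.1 and 0.972 CPM in cyclopamine, leaving 13.9% of the control level. Elavl4 measured 6.91 and 11.2 CPM against 3.23 and 3.48 CPM, leaving 35.6%, and did not pass the threshold (-1.27, SE 0.30). Thy1, a surface glycoprotein of neurons and also of other cells such as lymphocytes and mesenchyme, measured 4.44 and 3.89 CPM against 0.473 and 0.648 CPM. It was the only neuron gene besides Dcx with a higher level in control 1 than in control 2.

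The last 3 neuron genes changed least. Dcx, which encodes the microtubule-associated doublecortin of migrating neurons, measured 68.0 and 56.6 CPM in control limbs and 58.5 and 47.9 CPM in cyclopamine. Its ranges overlapped, cyclopamine 1 lying above control 2 (log2 fold change -0.23, SE 0.17). Nefl and Nefm, the light and medium neurofilament genes of axons, left 50.8% and 60.0% of their control level. Nefl measured 7.12 and 7.2 CPM against 3.63 and 3.65 CPM, and Nefm 7.12 and 9.99 CPM against 5.6 and 4.94 CPM. Neither passed the threshold (-0.89, SE 0.29, and -0.63, SE 0.28), although neither overlapped. On chromosome 14, Nefl (68083863 to 68089095) lies within the annotated span of Nefm (68082590 to 68124846). They are on opposite strands with overlapping exons, so reads may be shared between them. Together Dcx, Nefl and Nefm summed to 82.2 and 73.8 CPM in control limbs and 67.7 and 56.5 CPM in cyclopamine, a ratio of reads of 1.24 (95% counting interval 1.16 to 1.33). The other 10 neuron genes summed to 57.8 and 83.5 CPM against 15.2 and 18.7 CPM, a ratio of 4.3 (3.86 to 4.79). This division of the neuron genes was made after their values were seen.

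**Figure D3:**
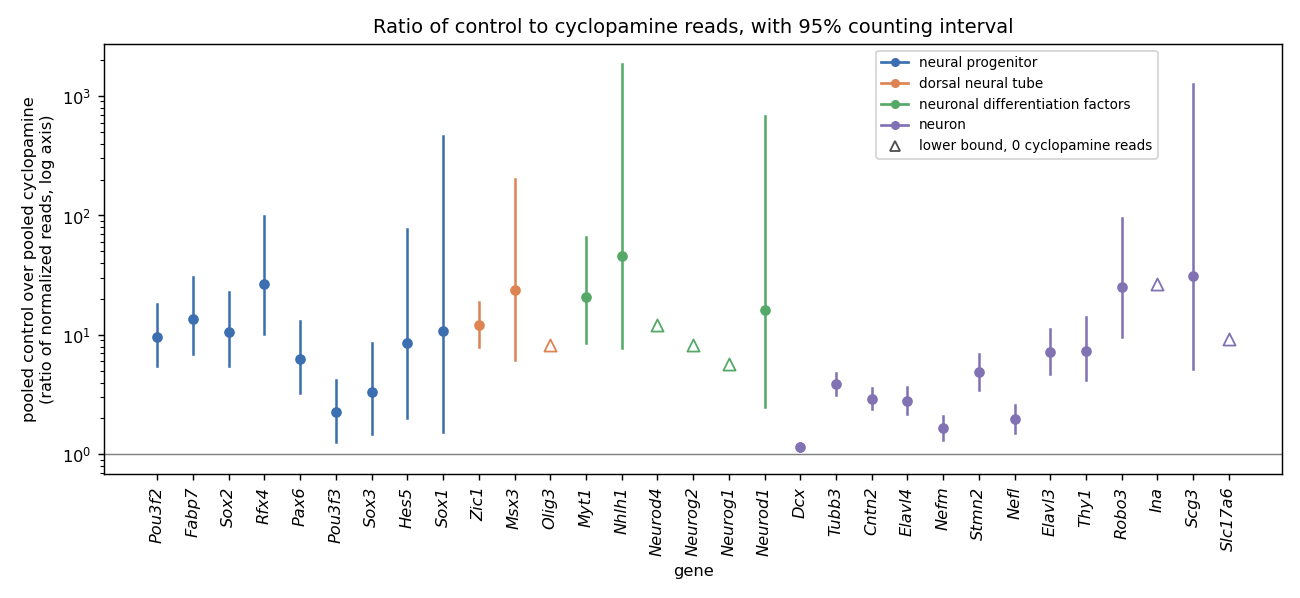
Ratio of pooled control to pooled cyclopamine reads, each divided by library size (vertical axis, log scale), for each gene (horizontal axis), with 95% counting intervals as lines and lower bounds as open triangles where cyclopamine had 0 reads. Dcx, at 1.15, lies lowest, Pou3f3, Nefl and Nefm are near 2, and most progenitor and differentiation genes lie above 5.

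Levels per length put the genes in another order than CPM does. Per kilobase of exon, Tubb3 was the most abundant in the controls at 9.33 CPM per kb, followed by Dcx at 4.93, Fabp7 at 3.58 and Nefl at 2.12, with Zic1 and Sox2 at 1.96 each. The faintest gene was Sox1, at 0.0883 CPM per kb. In cyclopamine Dcx came first at 4.2 CPM per kb, then Tubb3 at 2.49 and Nefl at 1.08. Fabp7, the third in the controls, was at 0.289 CPM per kb there.

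The control libraries differed from each other in these genes. The set was not chosen on this contrast, but its choice used the values of both controls. Genes high in control 2 alone could thus enter it, so the shares below are description only. Control 2 was above control 1 for 29 of the 31 genes, against 49.8% of all genes in the table. The ratio was 2.52 for summed progenitor genes (95% counting interval 2.07 to 3.09), 2.12 for dorsal genes (1.66 to 2.73) and 2.24 for differentiation factors (1.64 to 3.09). For neuron genes it was 1.12 (1.05 to 1.2), or 1.4 (1.28 to 1.53) without Dcx. The intervals of single genes lay above 1 for 16 of the 30 genes with a ratio and below 1 for Dcx alone. Over all genes with reads in control 1, 19.4% had an interval above 1 and 18.6% below it. Robo3, Rfx4 and Fabp7 differed most among genes with over 90 control reads, by 4.44, 3.99 and 3.56, while Stmn2 and Nefl had ratios of 1.02 and 1.01. Msx3, with 44 control reads, had a ratio of 1.03 and a wide interval (0.543 to 1.99). These intervals compare 2 libraries and cover counting error only. With 1 library on each side, the difference has no replicate check. What the control libraries differed in, such as embryos, dissection or culture, is not stated in the labels.

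**Figure D4:**
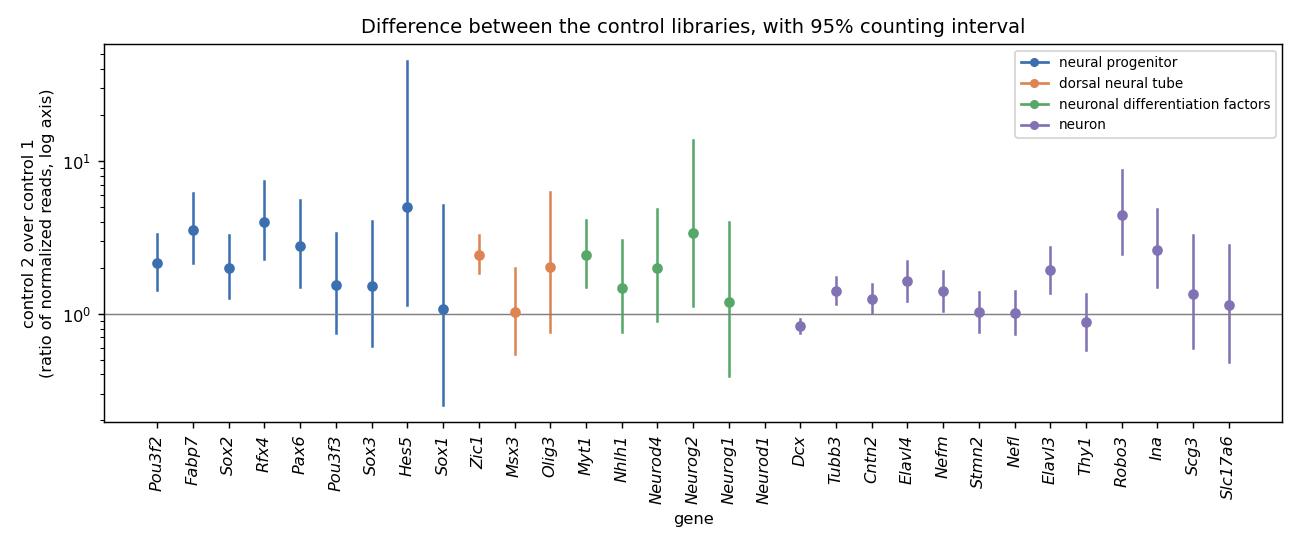
Ratio of control 2 to control 1 reads, each divided by library size (vertical axis, log scale), for each gene with reads in control 1 (horizontal axis), with 95% counting intervals as lines. Of 30 genes, 16 have intervals above the line at 1 (19.4% of all genes with reads in control 1), among them 6 of the 9 progenitor genes, and Dcx lies below it.

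Between the cyclopamine libraries, the progenitor sums of 42 and 35 reads gave a ratio of cyclopamine 2 to 1 of 0.856 (95% counting interval 0.531 to 1.37), while the dorsal sums of 1 and 26 reads gave 26.7 (4.39 to 1090). Leaving out control 2, the library with the higher levels, the log2 ratio of the progenitor sums went from -2.94 to -2.13, that of the dorsal sums from -3.68 to -3.04, and that of the differentiation factors from -5.04 to -4.34. Each cyclopamine sum was thus still under control 1 taken alone. The dorsal sum moved to -7.47 without cyclopamine 2, the library with all 25 cyclopamine reads of Zic1.

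Further neural genes, in 6 lists that hold none of the 31, were read from the same fit. Of 102 found in the table, 55 passed the filter. In limma 0 of the 55 were called at an adjusted p under 0.05, 45 were lower (against 49.0% of all genes tested) and 10 higher in cyclopamine, and the median log2 fold change was -0.34, against 0.00455 over all genes tested. At an unadjusted p under 0.05, 12 were lower (21.8%, against 2.78% of all genes tested) and 3 higher (against 3.04%). Both cyclopamine libraries lay below both controls for 26 of the 55 (47.3%, against 15.8%). These lists were chosen with earlier results of these data known, so the shares are description only and nothing is read from them. Run on recovered reads, edgeR's quasi-likelihood test (0.295% of all genes called) and DESeq2 (0.383%) each called 1 of the 55, Nhlh2. Nhlh2, a close relative of Nhlh1, measured 2.79 and 4.04 CPM in control limbs and 0.552 and 0.162 CPM in cyclopamine (limma log2 fold change -2.21, SE 0.45, adjusted p = 0.0578). Srrm4, a splicing regulator of neurons chosen here after its values were seen, measured 2.27 and 3.97 CPM against 0.71 and 0.243 CPM (-1.89, SE 0.46, limma adjusted p = 0.178).

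In the list of other neuron genes, 33 were tested, 28 were lower and 5 higher, and the median was -0.34. Its most abundant genes were Sox11, a factor of young neurons and of mesenchyme, at 847 to 962 CPM, the collapsin response gene Crmp1 at 71.9 to 96.9 CPM and the kinesin gene Kif5c at 75.3 to 84.8 CPM. Their log2 fold changes were 0.00 (SE 0.19), -0.10 (SE 0.17) and -0.14 (SE 0.15). Among other progenitor genes, 6 of 7 tested were lower and 1 higher, with a median of -0.56. Nes and Msi1, progenitor genes that mesenchyme also expresses, had log2 fold changes of -0.03 (SE 0.16) and -0.13 (SE 0.16), while Slc1a3, a glutamate transporter of radial glia, had -0.56 (SE 0.16). The 7 genes of this list under the filter, among them the interneuron progenitor gene Gsx1, summed to 56 and 79 reads in the controls and 21 and 22 in cyclopamine.

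Of the other dorsal and roof plate genes, 4 of 6 tested were lower and 2 higher, with a median of -0.28. Zic2 and Pax3 were among the most abundant of these; Pax3 is also a gene of muscle precursors that migrate into the limb. Zic2 measured 124 and 105 CPM against 93.6 and 83.9 CPM, and Pax3 12.6 and 19.1 CPM against 20.7 and 16.8 CPM. The 6 genes of this list under the filter summed to 23 and 71 reads in the controls and 35 and 25 in cyclopamine.

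Ventral and motor neuron genes were faint in control as well as in cyclopamine. The floor plate gene Foxa2 measured 0.147 to 0.648 CPM over the 4 libraries, Nkx2-2 0 to 0.162 CPM and Nkx6-1 0 to 0.31 CPM. The motor neuron factor gene Mnx1 measured 0 to 0.22 CPM and Lhx3 0 to 0.294 CPM. Most of these values are at or under the floor, so single genes say little at this depth. The 6 ventral genes under the filter summed to 22 and 11 reads in the controls and 19 and 32 in cyclopamine. For the 6 motor neuron genes under it, the sums were 7 and 25 reads against 16 and 22. Isl1 and Isl2, which motor and sensory neurons express, measured 1.5 to 3.4 CPM and 1.89 to 3.1 CPM. The spinal interneuron list had 4 of 6 tested genes lower and 2 higher (median -0.16). Its most abundant genes were Foxp2, at 33.0 and 28.9 CPM against 38.7 and 43.6 CPM (0.40, SE 0.17), Gata3 (0.06, SE 0.31) and Onecut2 (-0.59, SE 0.44). Its 10 genes under the filter, among them Lhx1, Lhx5 and Pax2, summed to 57 and 72 reads in the controls and 23 and 29 in cyclopamine. The 8 genes of brain regions all lay under the filter, at 47, 48, 47 and 42 summed reads in control 1, control 2, cyclopamine 1 and cyclopamine 2. In CPM these sums were 4.85, 3.53, 3.71 and 3.4 in the same order. Summed reads of this and the other lists are not scaled to library size, which was smallest for control 1.

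**Figure D5:**
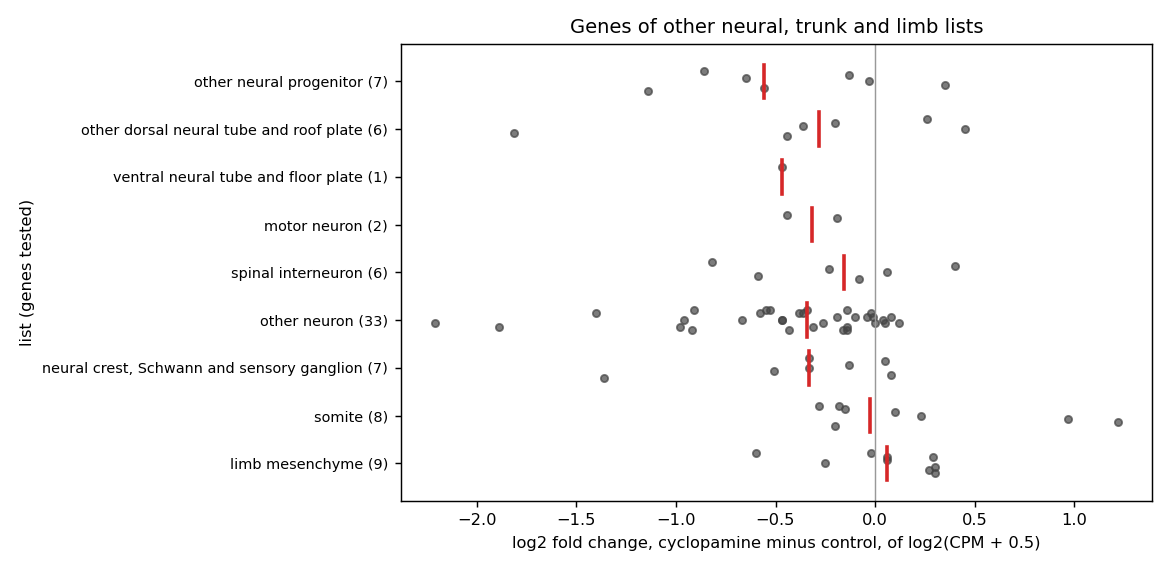
Log2 fold change of each tested gene (points; horizontal axis, cyclopamine minus control) in the 6 other neural lists and 3 lists of neighbouring tissue (rows, number of genes tested in parentheses), with the median of each list as a red bar. The medians of the neural lists run from -0.56 to -0.16, and single neural genes reach -2.21. The median is -0.33 for neural crest, Schwann and sensory ganglion genes, -0.02 for somite genes and 0.06 for limb mesenchyme genes.

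Lists of other tissue that a limb dissection could carry were read in the same way. The somite list, with Meox1, Tcf15 and the sclerotome gene Pax1, summed to 73.9 and 102 CPM in control limbs and 82.2 and 99.5 CPM in cyclopamine, with 4 genes higher and 4 lower of 8 tested and a median of -0.02, and Pax1 had the log2 fold change 0.97 (SE 0.26, limma adjusted p = 0.255). Neural crest, Schwann and sensory ganglion genes summed to 87.7 and 70.6 CPM against 67.2 and 62.7 CPM, with 5 of 7 tested genes lower, 2 higher and a median of -0.33. For 4 of these 7 (57.1%, against 15.8% of all genes tested), both cyclopamine libraries lay below both controls. In that list log2 fold changes were 0.05 (SE 0.25) for the Schwann cell gene Erbb3 and, for the sensory neuron factor gene Pou4f1, -1.36 (SE 0.42, limma adjusted p = 0.406). No gene of these 2 lists was called in limma (0 of 15), and 1 of each was past an unadjusted p of 0.05. Control 2 was above control 1 for 8 of the 11 somite genes and for 4 of the 15 crest and ganglion genes. Limb mesenchyme genes summed to 1490 and 1570 CPM against 1560 and 1780 CPM, with a median of 0.06. How much neural tissue each library held was not measured, and its part in the differences was not tested.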

How the data were processed

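RNA from cultured forelimbs was sequenced on the SOLiD platform in 4 libraries, 2 control and 2 cyclopamine. Per the submitters' processing notes, the mm10 build, edgeR 3.4.2, HTSeq 0.5.4p5, TopHat2 2.0.9, SAMtools and Bowtie are named without role or order; the sources used here do not give the annotation or strand setting. The authors deposited a normalized signal per gene, in CPM of an effective library size; 100% of values were whole multiples of 1 read within 0.01, so reads were recovered. The authors' deposited table holds each gene's log2 fold change, p-value and false discovery rate, from a test that is not stated.

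The 13568 genes whose mean reached 1 CPM entered a limma 3.58.1 fit (R 4.3.3) of log2(CPM + 0.5) values, trended on intensity; low genes' changes are understated by this pseudocount. Two-sided p-values were adjusted by Benjamini-Hochberg, threshold 0.05. The labels tie no library to separate embryos, so p-values refer to the spread between these libraries only. In limma that spread is moderated toward the one of genes of similar level. Its p-values and SEs thus do not measure the spread of a gene alone. Exact permutation of 2 against 2 cannot reach 0.05. Members and lists were chosen with earlier results of these data known. Named were all 31 genes, up to 4 called genes of each other list or else its 3 most abundant, and genes checking treatment and tissue; other genes named from the lists were chosen after their values were seen, and some listed genes are not reported here. Intervals are exact (Clopper-Pearson, 95%) on pooled reads and, like floors, cover counting error only, since PCR copies cannot be told from molecules here. Exon lengths and mm10 positions came from GENCODE vM21; 8 of the 31 genes have exons that overlap another gene's, 6 of them on the opposite strand. Alternatives used edgeR 4.0.16, DESeq2 1.42.0, other filters, pseudocounts and scaling, a block and left-out libraries. The fit was tested on simulated data.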

Additional observations from a re-analysis of the deposited data

How the results depend on the processing

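All 262 recomputed log2 fold changes of single genes kept their negative sign, over every alternative in which the gene could be fitted. The genes were chosen on this contrast and the same libraries were refitted, so the sign was largely fixed in advance. Nothing is read from it. Sizes could change: for Ina, with 0 cyclopamine reads, it was -2.69 in the main fit and -8.21 with edgeR's quasi-likelihood test. Calls depended on the model. Over all genes, limma called 38 (6 higher, 32 lower); it called 0 without the intensity trend, 2 (1 higher, 1 lower) without a filter and 20 (3 and 17) scaled by total reads, and DESeq2 called 52, of which 10 were higher and 42 lower. Of the 31 genes, 9 were called; 0 without the trend (837 of all genes at an unadjusted p under 0.05), 0 without a filter and 3 scaled by total reads. Of the other neural genes 0 were called, and 1 with a filter of 0.5 CPM, with edgeR's quasi-likelihood test and with DESeq2. The cause of these differences was not tested. Leaving out a library gave 43 to 122 calls (24 to 68 higher, 19 to 56 lower), 2 to 13 of the 31 genes and 0 to 2 other neural genes. Log2 ratios of summed levels ran from -1.42 to -1.01 for all 31 genes, -3.46 to -2.13 for progenitor, -7.47 to -2.73 for dorsal, -5.51 to -4.34 for differentiation and -0.99 to -0.82 for neuron genes. Without the most abundant gene they were -2.13 for all, -2.88 for progenitor genes, -5.14 for dorsal genes, -6.03 for differentiation factors and -1.74 for neuron genes.

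With a replicate block, limma called 351 genes (186 higher, 165 lower), 15 of the 31 and 7 other neural genes; the shared numbers are tied to no litter or day, and across genes the difference between replicates 1 and 2 correlated between the conditions at r = 0.274. Depth limits the 12 genes under the filter, whose cyclopamine reads sum to 9 and 7.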
